A study of Mus musculus with 21 samples.

Results

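Integrins and laminins, the receptors and the sheet-forming proteins through which cells hold on to a basement membrane, were followed in the whole uterus of young and aged mice. The genes were chosen by name: every listed symbol that starts with Itga, Itgb, Lama, Lamb or Lamc, plus Nid1, Nid2, Hspg2 and Agrn. This gave 37 of the 12791 genes listed, namely 14 integrin α subunits, 9 symbols that start with Itgb, 10 laminin chains, and the 4 genes of the nidogens, perlecan and agrin. One symbol that starts with Itgb, Itgb3bp, encodes a centromere protein that binds the β3 tail and is no subunit, so 8 β subunits remain. The annotation used here, GENCODE M21, holds 43 protein-coding genes of these families, and Itga11, Itga2, Itga8, Itgad, Itgb2l and Lama1 were not among those listed. Each gene in the tables has 10 or more reads in all 20 libraries, so the members analysed are those that passed a filter on low values.

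All mice were wild type C57BL/6J females of an inbred strain, and per the labels all were primed with pregnant mare serum gonadotropin (PMSG), a hormone that stimulates the ovary, at a dose of 5 or 7.5 units given 48 hours before dissection. The ages compared were 5 weeks (5w, 7 libraries), 8 weeks (8w, 7 libraries) and aged (6 libraries). Replicates 1 and 2 of each age form an earlier set, with aged mice of 60 to 75 weeks, and replicates 3 to 7 form a later set, with aged mice of 79 weeks. Each library stands for 1 sample, and the labels do not say which dose, instrument or extraction kit went with which mouse, so a set can differ in all of these and, for the aged group, in age, which cannot be told apart.

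An integrin is a pair of 1 α and 1 β subunit, and the pair decides the ligand: α3, α6 and α7 with β1, and α6 with β4, bind laminins, αv with β3, β5, β6 or β8 binds proteins with an RGD motif, and the α subunits of leukocytes pair with β2 or β7. A laminin is a trimer of 1 α, 1 β and 1 γ chain, and nidogens, perlecan and agrin tie laminin to collagen IV or to the cell surface. In the uterus, basement membranes lie under the luminal and glandular epithelium and around smooth muscle cells and vessels, and integrins of the epithelium are known for their part in embryo attachment.

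Values were deposited as CPM, counts scaled to a sum of 1000000 per library over the genes listed. In 15 of 20 columns the header names another sample than the one the file is attached to, and columns were assigned by header. In 2 columns, 5w replicate 3 and 8w replicate 3, file and header give different ages, and in 2, aged replicates 2 and 5, different sets. Aged replicate 3 was not analysed here. Depth, recomputed from the steps between low CPM values, was 12204573 to 14448283 reads in the 6 earlier and 19100690 to 30689439 in the 14 later libraries. The thinnest member values rested on 12 reads (Lamc3) and 15 reads (Itgae). Of 12 uterine marker genes 11 were listed, and summed they reached 1542 CPM or more in every library.

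Expressed per kb of exon, Itgb1, the β subunit shared by most integrins, stood highest, with a mean of 182 CPM per kb over the 20 libraries (75.2 to 283). Itgb5 followed at 44.3, then Nid1 at 28.1 and Itga6 at 25.2, while Lamb1 stood at 22.7, Lamc1 at 20.3 and Lamb2 just under it at 20.05 CPM per kb. The ranges of these genes after Itgb1 overlapped between libraries, so their order is not resolved beyond the spread. Itgb1 had its lowest value, 75.2 CPM per kb, in aged replicate 7, where Itgb5 stood above it at 90.9. Over all libraries the lowest means were those of Itga4 at 0.662, Itga10 at 0.792, Itgae at 0.854 and Lamc3 at 0.871 CPM per kb. Their order differed between ages: Itgae was lowest at 5w (0.493) but at 1.52 CPM per kb in aged uteri, above Itga1 (1.32). These lengths join the exons of all isoforms of a gene, which understates genes with many isoforms.

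Differences between ages were tested with limma on log2(CPM + 1), with the set as a term, over all 12791 genes at an adjusted p of 0.05. Differences and fold changes below are on that scale, which understates the change of low genes. In aged against 8w uteri 10 of 37 members were called, 8 higher and 2 lower, where 17.2% of all genes were called (8.64% higher and 8.53% lower). In aged against 5w uteri 9 were called, 7 higher and 2 lower, where the share over all genes was 22.1% (12.7% higher and 9.41% lower). The median member difference was 0.21 in both comparisons, beside 0.05 and 0.09 for all genes. Both comparisons use the same aged libraries. The members that rose in both were Itgb5, Itgb7, Itga9, Itgae and Lamb2, and Itga6 fell in both.

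**Figure D1:**
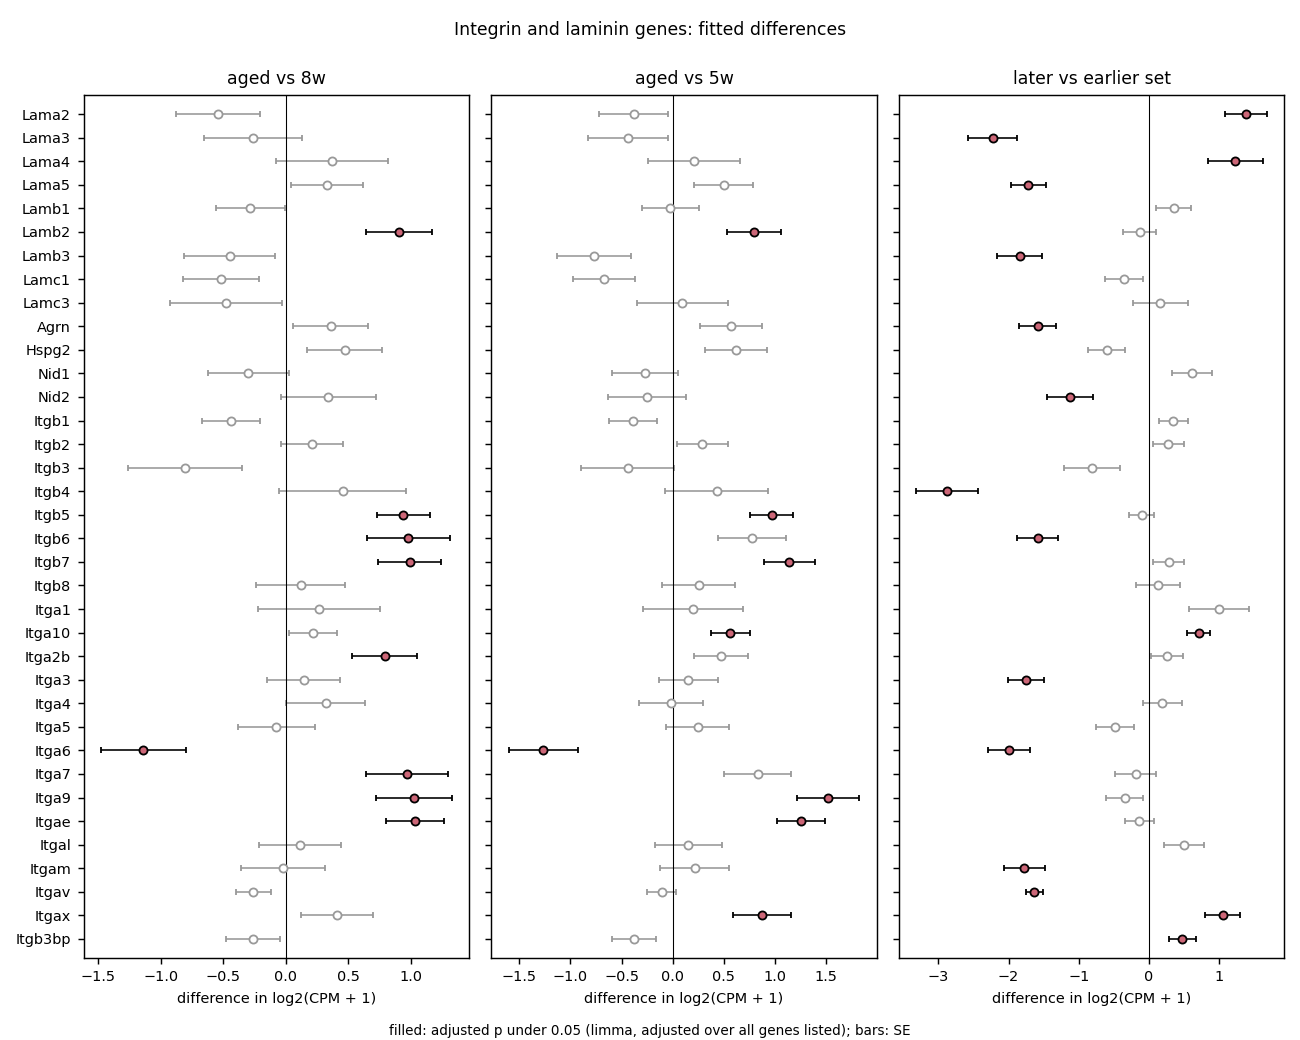
Fitted difference in log2(CPM + 1) with its SE for 36 of the 37 genes, in aged against 8w, in aged against 5w, and in the later against the earlier set, with filled points where the adjusted p is under 0.05. Itga6 (-1.14 and -1.27) lies far to the left in both age panels, and most filled points of the age panels lie to the right, while the set panel reaches -2.87 for Itgb4.

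Among the laminins, the β2 chain rose with age, while the β3 and α3 chains of epithelial basement membranes did not pass the test. Lamb3, the β3 chain, differed by -0.45 ± 0.36 (log2 ± SE, as for all differences below) in aged against 8w (adjusted p = 0.414) and by -0.77 ± 0.36 against 5w (adjusted p = 0.133), and Lama3, the α3 chain, by -0.27 ± 0.39 and -0.44 ± 0.39 (adjusted p = 0.675 and 0.444). For Lama3 the range ran from 8.25 CPM in 5w replicate 5 to 174 CPM in 5w replicate 2, a span within 1 age group.

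Lamb2 encodes β2, a chain of muscle, vessel and synaptic basement membranes. It ranged from 51.0 over 93.1 to 169.9 CPM at 5w, from 64.6 over 77.3 to 192 CPM at 8w, and from 139 over 168.0 to 218 CPM in aged uteri. The lowest aged library lay above 6 of 7 libraries at both younger ages, with 5w replicate 4 and 8w replicate 7 among the aged values. The rise was 1.87-fold against 8w (0.90 ± 0.26, adjusted p = 0.0241) and 1.74-fold against 5w (0.80 ± 0.26, adjusted p = 0.0351). Against 8w the call was lost without 8w replicate 2, 8w replicate 3 or aged replicate 1 (adjusted p 0.0559 to 0.0656). Against 5w it was lost without any of 5w replicates 2, 3, 6 and 7 or aged replicates 1, 2, 4, 6 and 7 (0.0529 to 0.0799). Both calls were also lost in the later set alone and with columns attached by file in place of header. The same held without the 2 columns that differ in age, or the 4 that differ in age or set, between file and header. With no set term, in the earlier set alone and with replicate number in place of the set term, the call against 5w was lost. In these fits the adjusted p was at most 0.350 against 8w and 0.225 against 5w.

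Lamb1 and Lamc1, the β1 and γ1 chains of most laminins, did not pass: Lamb1 differed by -0.28 ± 0.28 and Lamc1 by -0.52 ± 0.30 from 8w. Across all libraries Lamb1 ran from 103 to 432 CPM and Lamc1 from 65.8 to 313 CPM. Of the α chains, Lama5 (epithelial and vessel), Lama4 (vessel and muscle) and Lama2 (muscle) differed from 8w by 0.33 ± 0.29, 0.37 ± 0.45 and -0.54 ± 0.34, none past the threshold. Lamc3, the rare γ3 chain, stayed between 0.932 and 14.7 CPM and differed by -0.48 ± 0.45.

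The linkers were not called at any age. Nid1 and Nid2, the nidogens that bridge laminin to collagen IV, differed by -0.30 ± 0.32 and 0.34 ± 0.38 from 8w. Hspg2, which encodes perlecan, differed by 0.47 ± 0.30 and 0.62 ± 0.30 from 8w and 5w (adjusted p = 0.299 and 0.144), and all 6 aged libraries (121 to 216 CPM) lay within the younger range. Agrn, which encodes agrin, differed by 0.36 ± 0.30 and 0.57 ± 0.30.

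Relative to its class and per kb, the β2 chain took a larger share in aged uteri. Lamb2 made up 22.3% to 43.6% (median 31.6%) of β chain signal at 8w and 26.0% to 40.8% (median 34.0%) at 5w, but 41.0% to 59.6% (median 53.4%) in aged uteri. The aged median share was 52.6% in the earlier and 54.6% in the later set. These shares are a description and carry no test.

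**Figure D2:**
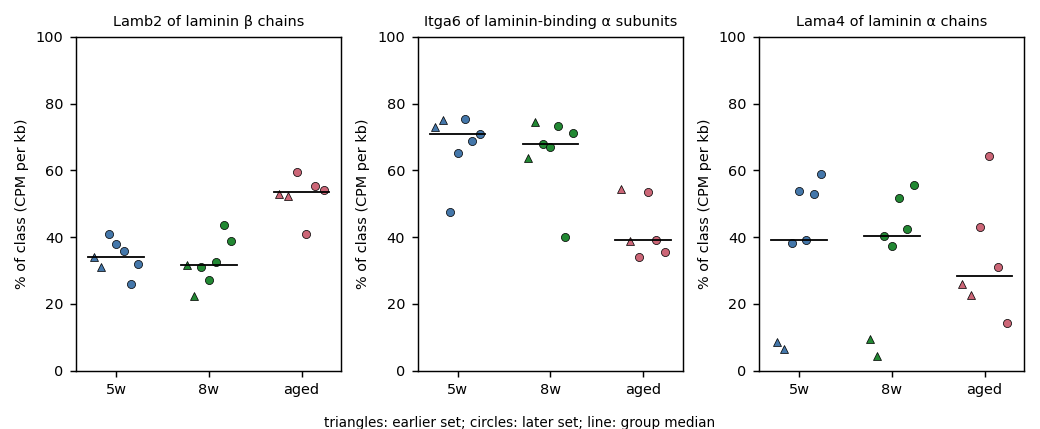
Share of Lamb2 among laminin β chains, Itga6 among the laminin-binding α subunits and Lama4 among laminin α chains, in percent of the class in CPM per kb, 1 point per library by age with the group median as a line. The Lamb2 share sits at 41.0% to 59.6% in aged and at 22.3% to 43.6% in 8w libraries, while the Lama4 shares of young uteri part by set (triangles against circles).

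Of the 8 β subunits 3 rose against 8w, Itgb5, Itgb6 and Itgb7, and 2 of these, Itgb5 and Itgb7, also against 5w, while none fell. RefSeq promoter sequences for GRCm38.p6 were at hand for 24 of the 37 members, among them these 3 genes, whose promoters are shown because they are the β subunits that passed the test against 8w. Each run spans 200 bases, from 250 to 51 bases before the RefSeq start (for Itgb6, of the 2 listed, the one nearer to the annotated gene start), 5′ to 3′ on the gene's strand. Capitals mark matches to GGGCGG, the core of an Sp1 site, on either strand.
Itgb5, chr16:33829415-33829614, plus strand: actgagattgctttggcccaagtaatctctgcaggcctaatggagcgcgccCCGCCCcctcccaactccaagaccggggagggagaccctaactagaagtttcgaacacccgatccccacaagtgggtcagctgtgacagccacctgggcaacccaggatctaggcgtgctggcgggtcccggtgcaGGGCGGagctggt
Itgb6, chr2:60722654-60722853, minus strand: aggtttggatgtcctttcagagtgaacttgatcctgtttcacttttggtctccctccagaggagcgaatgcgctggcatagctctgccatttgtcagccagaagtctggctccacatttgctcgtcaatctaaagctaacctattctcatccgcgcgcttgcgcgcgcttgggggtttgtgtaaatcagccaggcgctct
Itgb7, chr15:102231986-102232185, minus strand: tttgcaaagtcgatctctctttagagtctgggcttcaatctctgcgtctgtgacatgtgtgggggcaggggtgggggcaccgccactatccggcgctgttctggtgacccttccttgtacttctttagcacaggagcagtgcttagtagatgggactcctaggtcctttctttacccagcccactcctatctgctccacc
The Itgb5 window holds 2 such matches and the other windows none, where 24.6% of 32817 promoter windows of the same length hold at least 1. GC content was 62.5% for Itgb5, 52.0% for Itgb6 and 54.5% for Itgb7, beside a median of 51.5% over all windows. None of the 3 windows matched TGANTCA (AP-1), CACGTG (an E-box) or TGTGGT (Runx), searched on both strands, which 5.58%, 4.34% and 11.6% of all windows hold. The 3 windows thus share none of the motifs searched.

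Itgb5 encodes β5, a partner of αv in many cell types. Its lowest, median and highest CPM were 85.9, 120.5 and 165 at 5w, 76.3, 117 and 199 at 8w, and 190.0, 225 and 323 in aged uteri. Every aged library lay above every 5w library, as did 1.65% of all genes, and 4 of 6 lay above every 8w library. The rise was 1.92-fold against 8w (0.94 ± 0.21, adjusted p = 0.00525) and 1.95-fold against 5w (0.96 ± 0.21, adjusted p = 0.00329). Both calls held without any single library. With columns attached by file in place of header, the difference from 8w was 0.64 (adjusted p = 0.173). In the earlier set alone both calls were lost (adjusted p = 0.230 against 8w and 0.0930 against 5w).

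Itgb7 encodes β7, the partner of α4 and αE on lymphocytes that home to or stay in mucosa. It ran from 5.67 over 7.41 to 16.1 CPM at 5w, from 5.15 over 8.55 to 16.5 CPM at 8w, and from 10.3 over 19.2 to 34.6 CPM in aged uteri. The only aged library within the 5w range was replicate 5, whose column lies in a file of the other set. It rose 1.99-fold against 8w (0.99 ± 0.25, adjusted p = 0.0116) and 2.20-fold against 5w (1.14 ± 0.25, adjusted p = 0.00352). Neither call was lost without any single library, but in the later set alone the adjusted p was 0.222 against 8w and 0.0765 against 5w. The call against 5w was also lost in the earlier set alone.

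Itgb6 encodes β6, an epithelial partner of αv that activates latent TGF-β. Its CPM were 10.3, 13.7 and 43.3 at 5w, 6.26, 11.7 and 42.5 at 8w, and 6.75, 40.6 and 68.7 in aged uteri, again lowest, median and highest. All groups overlapped, and at 5w and 8w the earlier libraries (27.6 to 43.3 CPM) lay above the later ones (6.26 to 17.1 CPM). The difference was 0.98 ± 0.33 from 8w (1.97-fold, adjusted p = 0.0461) and 0.78 ± 0.33 from 5w (adjusted p = 0.0945). The call against 8w was kept only without 5w replicate 5, 5w replicate 6, 8w replicate 4 or aged replicate 5, and lost without any of the other 16 libraries (adjusted p 0.0509 to 0.111). Against 5w, leaving out aged replicate 5 gave an adjusted p of 0.00745.

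The other β subunits were not called. Itgb1 differed by -0.44 ± 0.23 from 8w and -0.39 ± 0.23 from 5w (adjusted p = 0.202 and 0.234), with 3 of 6 aged libraries below every 8w library. Itgb3, known as a marker of uterine receptivity and a partner of αv and αIIb, ran from 12.6 to 107 CPM at 8w and from 17.9 to 43.2 CPM in aged uteri (-0.81 ± 0.46, adjusted p = 0.229). Itgb4, the partner of α6 in hemidesmosomes, differed by 0.45 ± 0.50, Itgb8, a further partner of αv, by 0.12 ± 0.35, and Itgb2, the leukocyte β2, by 0.21 ± 0.25. Itgb3bp differed by -0.26 ± 0.22.

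Of the 14 α subunits, Itga6 fell and Itga9 and Itgae rose in both comparisons. Itga6 encodes α6, a laminin receptor of basal epithelial surfaces. Its CPM were 64.3, 177 and 658 at 5w, 50.1, 170.0 and 757 at 8w, and 50.6, 78.6 and 186.5 in aged uteri. In the earlier set the 2 aged libraries (180.2 and 186.5 CPM) lay below all 4 younger ones (441 to 757 CPM), and in the later set the groups overlapped. It was 2.20-fold lower than at 8w (-1.14 ± 0.34, adjusted p = 0.0258) and 2.40-fold lower than at 5w (-1.27 ± 0.34, adjusted p = 0.0118). The call against 8w was lost without any of 8w replicates 2 and 5 or aged replicates 1, 2 and 4 (adjusted p 0.0507 to 0.0687), while that against 5w held without any single library. With no set term, and in the later set alone, both calls were lost.

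Of the other laminin-binding α subunits, Itga7 rose against 8w and Itga3 did not pass. Itga3 encodes α3, also epithelial, and differed by 0.14 ± 0.29 from 8w (adjusted p = 0.774). Itga7 encodes α7, the laminin receptor of muscle, and had 4.42, 13.5 and 18.2 CPM at 5w, 5.39, 9.56 and 15.7 at 8w, and 10.1, 21.9 and 36.2 in aged uteri. In 5 of 6 aged libraries it lay above every 8w library (0.97 ± 0.33, 1.96-fold, adjusted p = 0.0475). Against 5w it missed the threshold (0.83 ± 0.33, adjusted p = 0.0739). Its call against 8w was lost without any of 5w replicates 1, 2, 3 and 7, 8w replicates 1, 2, 3 and 4, or aged replicates 1, 2, 4 and 6 (adjusted p 0.0513 to 0.127), and without aged replicate 7 the adjusted p against 5w was 0.0305. Per kb, Itga6 made up 40.1% to 74.4% (median 67.8%) of Itga3, Itga6 and Itga7 together at 8w and 34.0% to 54.5% (median 39.1%) in aged uteri.

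Itga9 encodes α9, which pairs with β1 and is known from lymphatic valves and smooth muscle. Its lowest, median and highest CPM were 5.23, 17.4 and 26.7 at 5w, 8.92, 22.4 and 29.1 at 8w, and 29.8, 43.3 and 62.9 in aged uteri. All 6 aged libraries lay above all 14 younger ones, and this held for no other member. Over all genes, 0.946% had every aged above every 8w library and 1.65% every aged above every 5w library. The share above all 14 younger libraries was not computed. The rise was 2.03-fold against 8w (1.02 ± 0.31, adjusted p = 0.0270) and 2.86-fold against 5w (1.52 ± 0.31, adjusted p = 0.00186). Against 8w the call was lost without 8w replicate 1, 8w replicate 3, aged replicate 2 or aged replicate 7 (adjusted p 0.0508 to 0.0639). It was also lost with no set term, in each set alone and with columns attached by file. The same held without the 4 columns whose file and header differ in age or set (adjusted p at most 0.257 over these fits). Against 5w it was kept in each of the alternatives run.

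Itgae encodes αE, the partner of β7 on lymphocytes and dendritic cells within epithelia, where it binds E-cadherin. It had 1.47, 2.15 and 2.95 CPM at 5w, 0.744, 2.88 and 5.35 at 8w, and 5.32, 5.56 and 9.92 in aged uteri. Every aged library lay above every 5w library, and 5 of 6 lay above every 8w library. The rise was 2.04-fold against 8w (1.03 ± 0.23, adjusted p = 0.00566) and 2.38-fold against 5w (1.25 ± 0.23, adjusted p = 0.00110). No single library ended either call. With columns attached by file the difference from 8w was 0.81 (adjusted p = 0.129). The call against 8w was also lost in the later set alone and in the earlier set alone (adjusted p at most 0.135).

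A further 3 α subunits passed in 1 age comparison each. Itga2b, which encodes the αIIb of platelets, had 5.41, 10.9 and 22.6 CPM at 8w and 12.4, 16.3 and 26.6 in aged uteri (0.79 ± 0.26, adjusted p = 0.0440). The call was lost without 5w replicate 7, any of 8w replicates 1, 2, 3, 5 and 7, or aged replicates 1, 2 and 7 (adjusted p 0.0515 to 0.125). Itgax, the αX of dendritic cells and macrophages, had 3.42, 12.7 and 18.0 CPM at 5w and 8.52, 16.4 and 31.1 in aged uteri (0.87 ± 0.29, adjusted p = 0.0340), lost without any of 5w replicates 1, 2 and 6 or aged replicates 1, 5 and 6 (0.0593 to 0.0903). Itga10, a collagen receptor subunit, had 1.85, 3.45 and 4.49 CPM at 5w and 2.57, 5.26 and 7.67 in aged uteri (0.56 ± 0.19, adjusted p = 0.0415), lost without any of 5w replicates 1, 2, 5, 6 and 7, 8w replicate 5 or aged replicates 1, 4, 6 and 7 (0.0511 to 0.0916). All 3 overlapped between ages, and 33.5% of the Itga10 exon length is shared with Gm42957 on the same strand.

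The remaining α subunits were not called. Itgav, the αv shared by β3, β5, β6 and β8, differed by only -0.26 ± 0.14 from 8w and -0.11 ± 0.14 from 5w. Itga5, the fibronectin receptor subunit, differed by -0.08 ± 0.31 from 8w, Itga1, a collagen receptor subunit, by 0.26 ± 0.49, and Itga4, which pairs with β1 or β7, by 0.32 ± 0.31. The leukocyte subunits Itgal and Itgam differed by 0.11 ± 0.33 and -0.03 ± 0.33, and 68.7% of the Itgam exon length is shared with Gm49368 on the same strand, so its reads cannot be assigned with certainty. Smaller shares, from 5.90% to 8.59%, of Itgav, Lamc3, Itgb4, Itga4, Nid2 and Itgb3bp lie on exons of the opposite strand, and no source used here says if the counting was stranded.

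**Figure D3:**
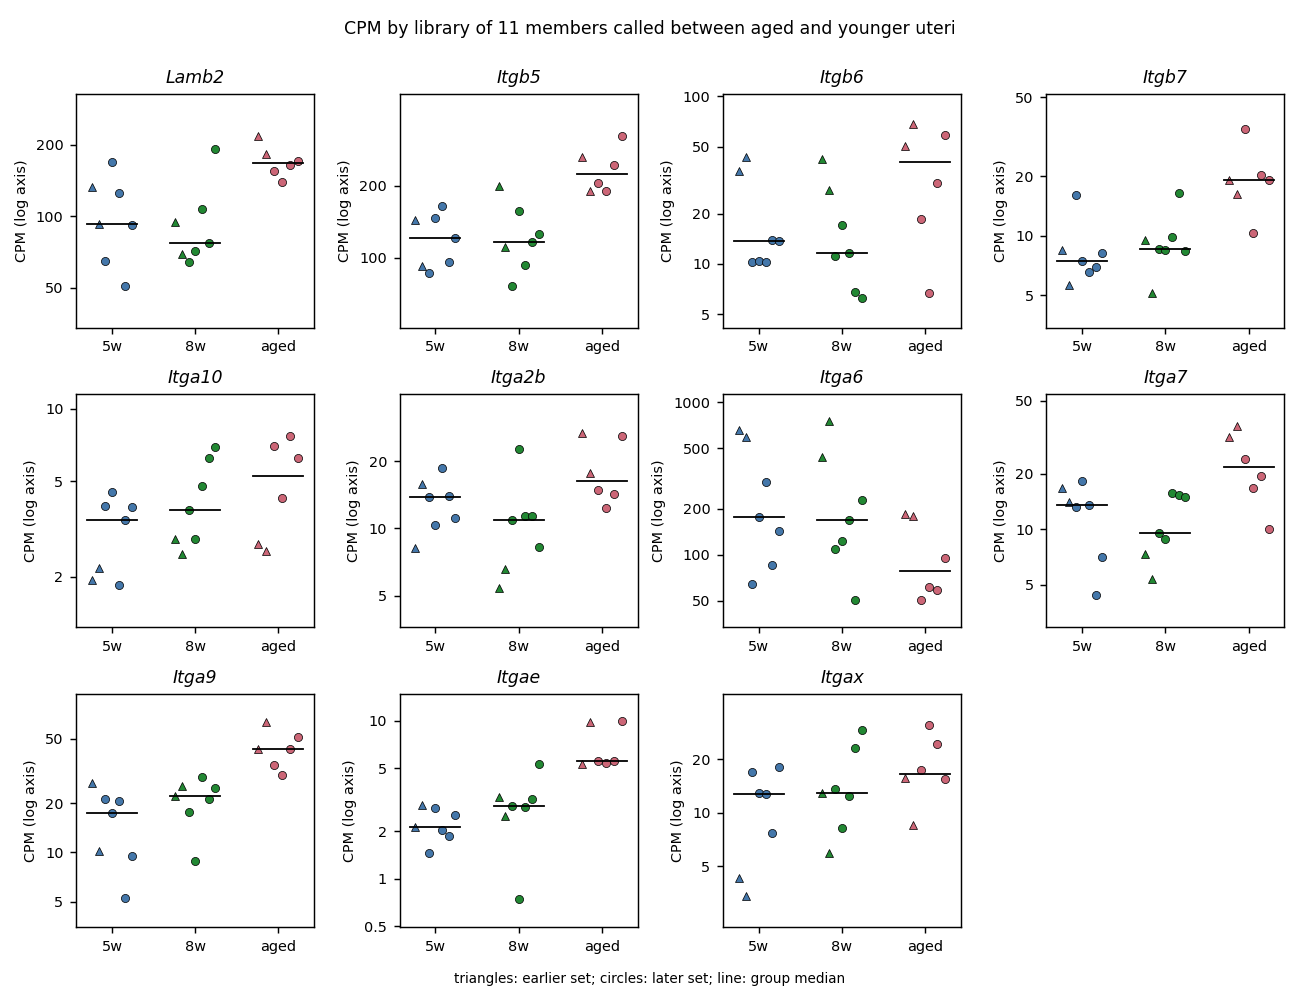
CPM on a log axis of 11 members called in aged against 8w or 5w uteri, 1 point per library by age, triangles for the earlier and circles for the later set, with the group median as a line. Itga9 shows all 6 aged points (29.8 to 62.9 CPM) above the 14 younger ones, while Itga6 shows the young earlier libraries far above the young later ones.

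Between 5 and 8 weeks no member and none of the 12791 genes passed limma's test (0% called). At an unadjusted p under 0.05 there were 139 genes, and no member was among them. Member differences ran from -0.59 (Nid2) to 0.57 (Lamc3), and the lowest unadjusted p was 0.0771, for Itga10 (0.34 ± 0.18). Itga9 differed by 0.50 ± 0.29 and Itgax by 0.46 ± 0.27, and neither passed.

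More members were called between the sets than between ages. In the later against the earlier set 17 were called, 5 higher and 12 lower, beside 58.7% of all genes (20.5% higher and 38.3% lower). Epithelial adhesion genes were among the lowest in the later set: Itgb4 by -2.87 ± 0.44, Lama3 by -2.23 ± 0.34, Itga6 by -1.99 ± 0.30 and Lamb3 by -1.84 ± 0.32. Also lower were Itgam (-1.78), Itga3 (-1.75), Lama5 (-1.72), Itgav (-1.63), Agrn (-1.59), Itgb6 (-1.58) and Nid2 (-1.13). Itgav was 161 to 202 CPM in the 6 earlier and 41.8 to 80.2 CPM in the 14 later libraries, with no overlap, as were 6.72% of all genes. Lama2 (1.38 ± 0.30), Lama4 (1.23 ± 0.39), Itgax (1.05 ± 0.25), Itga10 (0.71 ± 0.17) and Itgb3bp (0.48 ± 0.19) were higher in the later set.

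Epithelial markers moved with the set as well: 9 of 16 were lower in the later set and none higher, with a median of -1.52. Their summed level was 5666 to 11693 CPM in the earlier and 1956 to 7272 CPM in the later libraries, and smooth muscle markers, 7 of 13 called, all higher, summed to 2164 to 20394 and 3533 to 30085 CPM. In such whole tissue, fewer cells of a type and less RNA per cell cannot be told apart. With the mean epithelial marker level as a covariate, a fit added after the data were seen, 3 members in place of 17 were called between the sets, all lower. Over all genes the calls went from 2618 higher and 4894 lower to 671 and 1070 with that covariate, so the drop was not limited to the members. Since the epithelial level itself differs between the sets, covariate and set overlap in this fit. Their parts in the set difference cannot be told apart. The age calls numbered 10 in both comparisons with that covariate, with Itga6 at -1.13 ± 0.32 from 8w (adjusted p = 0.0198) and Itgb6 at 1.01 ± 0.18 (8.9e-04). Against 5w, Itgb6 was at 0.86 ± 0.18 (adjusted p = 0.00202) and past the threshold.

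No member's age difference passed the test of a difference between sets, in which 0.0235% of all genes passed for aged against 8w and none for aged against 5w. Unadjusted, 7 of 37 members had a p under 0.05 for aged against 8w and 4 for aged against 5w. Over all 12791 genes, 1855 and 1079 had such a p, so many genes outside the family did as well. Lama4, an α chain of vessels and muscle, was the extreme: aged minus 8w was 2.23 ± 0.65 in the earlier set and -0.49 ± 0.43 in the later set (difference -2.72 ± 0.78, adjusted p = 0.133). Its 2 earlier aged libraries (103 and 157 CPM) lay above the earlier 8w ones (21.3 and 32.2 CPM), while the later aged ones ranged from 50.5 to 233 CPM and the later 8w ones from 82.2 to 285 CPM. Itga7 was 2.25 in the earlier and 0.40 in the later set (adjusted p of the difference 0.162), Lamc3 was 1.28 and -1.29 (0.155), Itga4 1.53 and -0.23 (0.178), and Nid2 1.76 and -0.30 (0.202). The earlier set has 2 libraries at each age, and none of these differences was called.

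Inside cells, integrins act through adaptors that join them to actin. Of 29 listed adaptor and focal adhesion genes 2 rose in each comparison and none fell, with a median difference of 0.27 from 8w and 0.30 from 5w. Of all genes, 8.64% were called higher against 8w and 12.7% against 5w, with medians of 0.05 and 0.09, so the adaptor counts do not stand out. The 2 adaptor genes were Tns2, a tensin (1.23 ± 0.24, adjusted p = 0.00207 from 8w, and 1.28 ± 0.24, 0.00112 from 5w), and Tln2, a talin (1.05 ± 0.32, 0.0312, and 1.21 ± 0.32, 0.0118). Of 14 other laminin receptors none was called against 8w, and Sgce (0.75 ± 0.21, adjusted p = 0.0167), Sdc2 (0.52 ± 0.17, 0.0371) and Dmd (0.73 ± 0.26, 0.0484) rose against 5w. Sgce and Dmd belong to the dystrophin complex, which binds laminin through dystroglycan, and Sdc2 is a syndecan.

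Other basement membrane genes moved in both directions, 3 of 21 up and 3 down against 8w, and 4 up and 4 down against 5w. Among all genes 8.64% were called higher and 8.53% lower against 8w, and 12.7% and 9.41% against 5w. Tgfbi, a collagen- and integrin-binding matrix protein, rose by 2.32 ± 0.48 (adjusted p = 0.00301), Ntn4, a laminin-like netrin, by 1.72 ± 0.41 (0.00752), and Ntn1 by 1.64 ± 0.45 (0.0165) against 8w. Col4a3 (-1.15 ± 0.32, adjusted p = 0.0191), Col4a1 (-0.77 ± 0.25, 0.0428), both collagen IV chains, and Sparc, which binds collagen (-1.0 ± 0.32, 0.0386), fell. Against 5w the same 6 were called in the same directions, together with Efemp1 (1.24 ± 0.44, 0.0478) and the collagen IV chain Col4a2 (-0.75 ± 0.25, 0.0376).

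Of 21 other integrin ligands, 3 rose and 2 fell against 8w, and 5 rose and 1 fell against 5w. The shares of all genes were 8.64% higher and 8.53% lower against 8w, and 12.7% and 9.41% against 5w. Icam1, the ligand of β2 integrins, rose by 0.86 ± 0.20 (adjusted p = 0.00681) and Vcam1, the ligand of α4 with β1 and of α9 with β1, by 1.13 ± 0.33 (0.0231) against 8w. Ccn2, a matricellular protein that binds integrins, rose by 1.66 ± 0.41 (0.0101). Fbn1, fibrillin, fell by 1.23 (SE 0.37, adjusted p = 0.0275), and Spp1, osteopontin, a ligand of αv and α9 integrins, fell by 1.80 (SE 0.55, 0.0297). Cdh1, which encodes the E-cadherin bound by αE, differed by -0.44 ± 0.33 (adjusted p = 0.383). Exons of other genes overlap 11.7% of Icam1, 23.2% of Ccn2, 20.1% of Fbn1 and 18.8% of Spp1, so these values are less certain.

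Markers of the cells that carry these genes are given for the same libraries, and apart from the epithelial covariate above their part in the results was not tested. Beside the marker counts here and in the next paragraph stand the shares of all genes. These were 8.64% higher and 8.53% lower against 8w, and 12.7% and 9.41% against 5w. At an unadjusted p under 0.05, in either direction, there were 4101 of 12791 genes against 8w and 4633 against 5w. The medians of all genes were 0.05 and 0.09, with 6989 and 7299 genes above 0. Of 7 lymphatic endothelial markers 5 rose in each comparison and none fell, with medians of 1.40 and 1.53. Their sum was 90.0 to 381.5 CPM at 5w, 73.9 to 720 at 8w and 465 to 852 in aged uteri. Beside the leukocyte genes Itgae, Itgb7 and Itgax, 2 of 11 listed leukocyte markers rose in each comparison, Laptm5 (1.43 ± 0.37, adjusted p = 0.0124 from 8w) and Csf1r (0.95 ± 0.32, 0.0453), and none fell. Itgax was called against 5w only, and the leukocyte members Itgb2, Itgal, Itgam and Itga4 were called in neither comparison. The leukocyte sum was 499 to 1325 CPM at 5w, 451 to 2530 at 8w and 1050 to 2189 in aged uteri, and Cd3e, Cd3g, Cd79a, S100a8 and S100a9 were not listed.

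Beside Itga2b, 8 of 9 platelet markers were not listed and the listed one, Pf4, differed by 0.09 ± 0.38 from 8w, with 4.59 to 52.8 CPM at 8w and 11.9 to 44.3 in aged uteri. Red blood cell markers rose against 8w, 4 of the 4 tested, with sums of 16.1 to 63.1 CPM at 8w and 51.8 to 281 CPM in aged uteri, and against 5w limma called none (3 at an unadjusted p under 0.05). Beside Itga6, 16 epithelial markers had a median difference of -0.25 from 8w and -0.46 from 5w, with 10 of 16 below 0 in each comparison. Against 8w limma called none lower and 2 higher, Foxa2 (1.54 ± 0.40, adjusted p = 0.0122) and Cldn4 (1.13 ± 0.33, 0.0262), with 4 of 16 at an unadjusted p under 0.05 in either direction. Against 5w the same 2 rose and Cldn7 fell (-1.01 ± 0.33, adjusted p = 0.0348). The epithelial sum was 2711 to 10932 CPM at 5w, 2223 to 11693 at 8w and 1956 to 6500 in aged uteri. Beside Lamb2 and Itga7, no smooth muscle marker of 13 was called against 8w and 2 rose against 5w (sum 2951 to 17977 CPM at 5w, 2164 to 22970 at 8w and 3533 to 30085 in aged uteri). Their median difference was 0.41 from 8w and 0.43 from 5w, with 12 above 0 and 1 below in each comparison. All 12 cell cycle markers fell in both comparisons (medians -3.08 and -3.46), and of 14 stromal markers 1 fell against 8w and 3 against 5w. Of 14 blood endothelial markers 1 rose against 5w and limma called none against 8w (2 at an unadjusted p under 0.05). Their medians were 0.38 from 8w and 0.47 from 5w, with 12 and 13 of 14 above 0. Of 6 mesothelial markers limma called none in either comparison (0 at an unadjusted p under 0.05). All 6 were above 0 in both, with medians of 0.70 and 0.71.

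Chains that assemble with each other were compared across libraries for 18 pairs, chosen after values had been seen, within each set, because the sets lie apart. In the 14 later libraries Lamb1 and Lamc1 had a Pearson r of 0.915 (permutation p = 1e-05, the smallest that 100000 permutations can give, adjusted p = 0.00018) and a Spearman rho of 0.881 (permutation adjusted p = 0.00126). Without the 2 libraries farthest from the Lamb1 median, r was 0.855. With age means removed, r was 0.931. Gene pairs that do not assemble were not correlated, so it was not tested whether such an r is particular to these chains.

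Of the 18 pairs 2 passed on both measures. The pairs named next did not. Itgae and Itgb7 had an r of 0.530 (permutation adjusted p = 0.128) and a rho of 0.670 (adjusted p = 0.0489), and with age means removed r was -0.0452. Itgax and Itgb2 had an r of 0.660 (permutation adjusted p = 0.0625) and a rho of 0.719 (adjusted p = 0.0293). In the 6 earlier libraries no pair passed, with Lamb1 and Lamc1 at an r of -0.197 (exact permutation, adjusted p = 0.965), but at 0.949 with age means removed. The libraries of each set share 3 ages and their depth range.

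**Figure D4:**
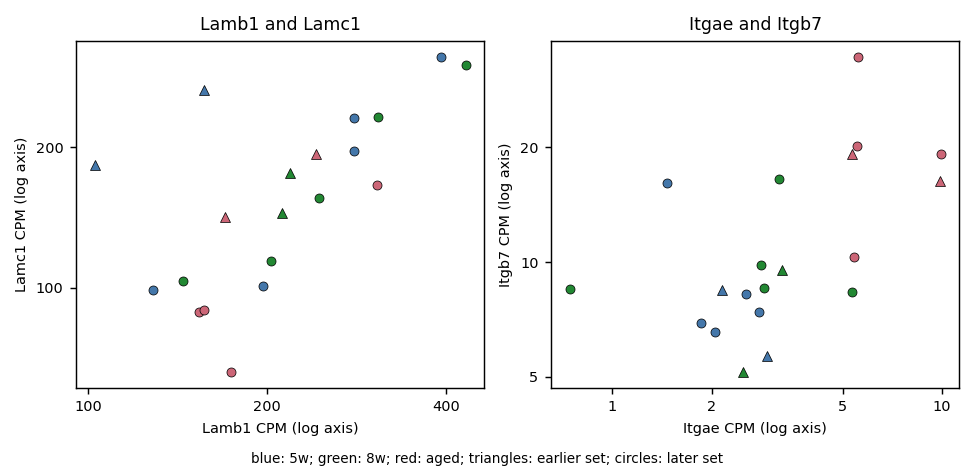
CPM of paired genes on log axes, 1 point per library, coloured by age, with triangles for the earlier and circles for the later set: Lamb1 with Lamc1, and Itgae with Itgb7. In the later set Lamb1 and Lamc1 rise together (r = 0.915), the 2 earlier 5w libraries lie off that line, and along Itgae 5 of 6 aged points lie above every younger one.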

How the data were processed

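Messenger RNA of whole uterus was sequenced in 21 samples, and 20 of 21 files held values. The labels' protocols give a NEBNext Ultra library kit and either of 2 Illumina instruments. Per the submitters' processing notes, fastp, STAR, featureCounts, edgeR and the build GRCm38 were used, with no versions or roles. The authors deposited CPM, scaled to 1000000 over the 12791 genes of each column. The file without values held gene symbols. All columns summed the same, so depth was recomputed from the steps between low values, and each value lay within 1e-06 of a whole read. No replicate columns were identical, and the 29 pairs within an age and set correlated at 0.849 to 0.980. Nothing in the labels says that replicates are separate litters or days, so p-values measure the spread between these samples.

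Values were analysed as log2(CPM + 1) with limma 3.58.1 in R 4.3.3 (empirical Bayes with a trend, Benjamini-Hochberg over all genes, threshold 0.05), with age and set as terms and all 20 libraries sharing 1 spread, and a model with their interaction for differences between sets. The code was tested on simulated data. Correlations used scipy 1.17.1 and figures matplotlib 3.10.9. Of the gene IDs, 12767 were found in GENCODE M21 and 24 were not. Every member called is named with its values, except 1 that is counted but not reported here, and of each other list the 3 genes with the smallest adjusted p among those called in either comparison, with a few more named by role. The members and lists were chosen with earlier results of these data known. Alternatives were other pseudocounts (0.25 and 5), a mean CPM minimum of 5, median centring, quantile normalization, no set term, each set alone, columns attached by file, a replicate block, and each library left out, plus 3 added after the data were seen. Depth limits rare members. The lowest chi-square per degree of freedom over genes between 2 replicates was 30.9, so no pair was treated as repeat deposits of 1 library.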

Additional observations from a re-analysis of the deposited data

Results flagged for a closer look

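In 2 of 111 groups of libraries examined, 1 library stood far from the rest of its age group, where chance gives about 1 group in 20. Itgb7 reached 16.1 CPM in 5w replicate 3, against 5.67 to 8.44 CPM in the other 5w libraries, and this is a column whose file is attached to a sample of another age. Without that library Itgb7 was still called higher in aged against 5w uteri. Itga9 was 8.92 CPM in 8w replicate 4, against 17.7 to 29.1 CPM in the other 8w libraries, and without it the aged minus 8w difference was 0.85 and still called.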

How the results depend on the processing

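The count of members called in aged against 8w uteri, 10 as reported, was 4 with no set term, 1 in the later set alone, 1 with columns attached by file, 6 without the 2 columns whose file and header give different ages, and 5 without the 4 columns that differ in age or set. Leaving out 1 library gave 5 to 10 members, with 6 without 8w replicate 1 and 5 without 8w replicate 2, 8w replicate 3, aged replicate 1 or aged replicate 2. For aged against 5w, 9 as reported, it was 4 with no set term and 3 in the later set alone, and 6 to 10 with 1 library left out. Later against earlier, 17 as reported, gave 9 with columns attached by file and 3 with the epithelial covariate. Members whose change differed between sets, 0 as reported, numbered 4 (aged against 8w) and 2 (aged against 5w) with columns attached by file. The sets alone and the fits without libraries use fewer samples, and otherwise the cause was not tested. For the members called with age, no called age difference changed sign in the alternatives run. Among their differences that were not called, Itga10 in aged against 8w went from 0.22 to as low as -0.0088, and those of Itga6, Itga7, Itgb5 and Lamb2 between 8w and 5w took either sign. The count between 8w and 5w was 0 in each of them.

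Over all genes, 2196 were called in aged against 8w: 1105 higher and 1091 lower, beside 51 and 132 in the later set alone, 500 and 469 with no set term, 309 and 256 by file and 1922 and 1691 in the earlier set alone. For aged against 5w they were 1622 and 1203, beside 240 and 283, 815 and 565, 1287 and 727, and 1521 and 1093 in the same order. Median centring moved the median of all genes in the set comparison from -0.20 to 0.09, and its member calls from 5 higher and 12 lower to 12 and 12, with 9 and 12 under quantile normalization. Over all genes those calls went from 2618 higher and 4894 lower to 4330 and 3497. With the replicate block in place of the set term, 7, 8 and 0 members were called in the 3 age comparisons. In their deviations from the mean of age and set, samples with the same number correlated at -0.505 to 0.279 (median 0.104, 10 of 19 over 0.1). By this measure 5 of 20 libraries correlated best with their own number, so the numbers were not taken as pairs. In the earlier set the 2 libraries of an age deviate by equal and opposite amounts, so their correlations are tied to each other. Tests on recomputed reads with count models were planned and not run, since the deposited unit is CPM.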
